A study of Mus musculus with 12 samples.

Results

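The genes described here are 10 genes that mark macrophages of the testis. They are the receptors Csf1r, Cx3cr1 and Adgre1, the scavenger receptors Cd163 and Mrc1, the lysosomal genes Cd68 and Lyz2, and C1qa, C1qb and C1qc, which encode the chains of complement C1q. They were chosen by gene symbol from a table of 20718 genes, and all 10 were found and passed the filter on low counts, which kept 16297 genes. RNA was sequenced from whole testes of mice (strain label IRC mouse) whose testes had been injected with lentivirus at 4 weeks of age, kept for 5 weeks and then mated. In F0_5251KD the LV3 virus carried shRNAs against the long non-coding RNA lncRNA5251, whereas in F0_3NC it was the negative control virus of that backbone. The methods name 3 shRNAs, but the main and supplementary methods differ on how many positions they target. In F0_5251OV the LV5 virus carried full-length lncRNA5251, and in F0_5NC it was the empty LV5 vector. All 4 groups were therefore injected with a virus, and no uninjected testis was analysed here. There were 3 libraries per group, 12 in all. The labels do not say that they came from separate animals, so the p-values here cover only the spread among the libraries sequenced. The LV3 and LV5 groups also differ in backbone, and the backbone cannot be told apart from any other difference between the groups. The level of lncRNA5251 itself was not analysed here. The totals were 15431383 to 16355720 estimated counts per library, so depth was nearly equal.

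Macrophages are the main immune cells of the testis. They lie in the interstitium beside the testosterone-producing Leydig cells and on the wall of the seminiferous tubules. They survive through the receptor encoded by Csf1r, which binds the growth factors CSF1 and IL34, clear debris through scavenger receptors and lysosomes, and secrete C1q, which tags dying cells and microbes for uptake. In whole testis, fewer macrophages and less macrophage RNA per cell cannot be told apart.

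The results showed that all 10 genes were detected in every library, and that none of them differed between the groups at an adjusted p under 0.05 in any comparison. The spread between libraries was led by a single control library, F0_5NC replicate 1. There 8 of the 10 genes had their highest FPKM (reads scaled by transcript length and by library total). The other phagocyte genes and cell type markers are given after the members. Cells that could also carry some of these transcripts were checked by their markers. Of the neutrophil list, 6 of 8 genes had at most 3 counts in every library, as did 5 of 6 mast cell genes. The 6 pan-leukocyte genes summed to between 12.6 and 37.0 CPM (counts relative to the scaled library total), and no gene of these lists was at 0 in all libraries. Their sums were highest in F0_5NC replicates 2 and 3 (37.0 and 35.6 CPM), where epididymis genes were also highest (121 and 124 CPM). Of this list Cd52 had a log2 fold change of -3.93 in F0_3NC against F0_5NC (edgeR adjusted p = 0.0766). The other genes of the list lay between -0.25 and 0.15. The part of epididymal tissue in these sums was not tested.

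The 3 C1q genes lie next to each other on the minus strand of chromosome 4 (RefSeq, GRCm38.p6, the assembly that mm10 names): C1qb at chr4:136880126-136886200, C1qc at chr4:136889801-136892936 and C1qa at chr4:136895916-136898844. Lyz2, which encodes the lysozyme of macrophages, lies at chr10:117277541-117282272, also on the minus strand, next to its copy Lyz1. Mrc1 is on chromosome 2, Cd163 on 6, Cx3cr1 on 9, Cd68 on 11, Adgre1 on 17 and Csf1r on 18. Exon bases of Csf1r were shared with Hmgxb3 and those of Cx3cr1 with Gm33858. The methods mention no strand-specific library, and reads in those shared bases cannot be assigned to one gene. C1qa correlated more closely with C1qb and C1qc (Pearson r = 0.86 and 0.84) than these did with each other (0.69), but had no promoter sequence available. Stretches before the gene starts are therefore shown for C1qb and C1qc only among the C1q genes. They are also shown for Lyz2 and Lyz1, because part of their transcript sequence is shared. Each is from RefSeq (GRCm38.p6), reads 5′ to 3′ on the minus strand, and lies upstream of the start in both RefSeq and GENCODE. Capitals mark ACTTCCT, which is AGGAAGT on the other strand, the purine-rich core bound by ETS factors such as PU.1, the main transcription factor of macrophages. The regions are chr4:136886201-136886300, chr4:136893066-136893164, chr10:117282322-117282421 and chr10:117292918-117293017.
C1qb: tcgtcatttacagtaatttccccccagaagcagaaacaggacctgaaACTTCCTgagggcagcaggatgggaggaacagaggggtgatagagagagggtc
C1qc: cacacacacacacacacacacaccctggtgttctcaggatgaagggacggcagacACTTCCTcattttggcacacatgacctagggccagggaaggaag
Lyz2: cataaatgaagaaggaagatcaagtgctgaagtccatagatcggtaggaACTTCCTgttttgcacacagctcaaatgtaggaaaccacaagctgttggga
Lyz1: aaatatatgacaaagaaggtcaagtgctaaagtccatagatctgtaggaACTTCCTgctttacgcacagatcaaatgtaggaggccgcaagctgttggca

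The motif AGGAAGT, searched on both strands in the 250 bases before the start, was found in 4 of the 7 members with a window (Mrc1, C1qb, C1qc and Lyz2) and in 7.69% of all 32851 promoters. Csf1r, Adgre1 and C1qa had no window. The windows of Lyz2 and Lyz1 were the same at 80 of 100 bases, aligned without a gap. The transcripts were alike in part, and 15.4% of the 50-base windows of the longest Lyz2 transcript occurred in Lyz1. A share of the Lyz2 reads could therefore have been counted for Lyz1 or the reverse. The FPKM of Lyz1 (reads scaled by transcript length and by library total, the scale used here to compare genes) was between 0.0421 and 0.0769 times that of Lyz2.

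Over the 12 libraries Lyz2 was the most abundant of the 10 genes, with a mean level of 25.0 ± 9.3 FPKM (SD, n = 12). It was followed by C1qb (13.7 ± 2.32 FPKM), C1qa (10.8 ± 2.61), C1qc (10.3 ± 2.29) and the mannose receptor gene Mrc1 (7.25 ± 0.887). Cd68 (3.67 ± 1.33 FPKM) and Csf1r (3.22 ± 0.831) were in the middle, and Adgre1 (1.64 ± 0.377), Cx3cr1 (1.46 ± 0.459) and Cd163 (0.327 ± 0.158) were the lowest. The order was the same in all 12 libraries for most neighbours. The exceptions were C1qa, which was above C1qc in 7 of 12 libraries, Cd68, which was above Csf1r in 8 of 12, and Adgre1, which was above Cx3cr1 in 8 of 12. The levels of these 3 pairs did not differ beyond their spread. Lyz2 was above 81.5% of all genes of the table by mean FPKM and Cd163 above 24.5%. The counts behind them were 247 to 648 per library for Lyz2 and 11 to 49 for Cd163, so Cd163 values carry the most counting error. The coefficient of variation over the libraries was lowest for Mrc1 (12.2%) and highest for Cd163 (48.4%).

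**Figure D1:**
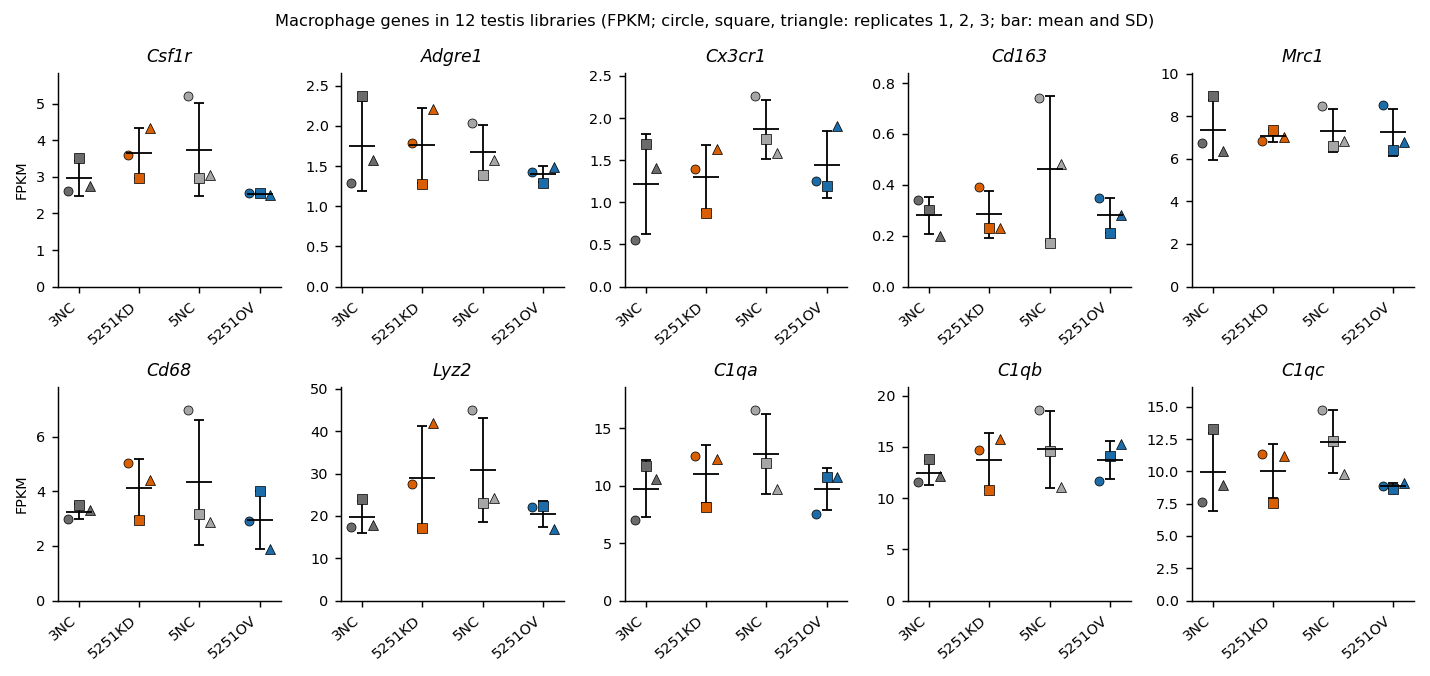
FPKM of the 10 macrophage genes (y axis, from 0) in the 4 groups (x axis, prefix F0_ left off), with a symbol per library and a bar for the mean and SD of 3 libraries. The F0_5NC circle (replicate 1) is the highest point for 8 genes, while Mrc1 and Adgre1 peak in F0_3NC replicate 2.

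Csf1r, the receptor on which macrophages depend, had levels of 2.62, 3.51 and 2.74 FPKM in the F0_3NC libraries and 3.61, 2.98 and 4.35 in F0_5251KD. In F0_5NC it was at 5.21, 2.96 and 3.05 FPKM, and in F0_5251OV at 2.57, 2.55 and 2.51. The 3 OV libraries were nearly equal and all lay below the 3 control libraries, whereas KD overlapped with its control. Adgre1, which encodes the surface protein F4/80, was at 1.29, 2.37 and 1.58 FPKM in F0_3NC and at 1.79, 1.27 and 2.21 in F0_5251KD. It was at 2.04, 1.39 and 1.58 FPKM in F0_5NC and at 1.42, 1.29 and 1.49 in F0_5251OV, and the groups overlapped in both comparisons. Cx3cr1, the receptor for the membrane-bound chemokine fractalkine, was at 0.55, 1.69 and 1.41 FPKM in F0_3NC and at 1.39, 0.87 and 1.63 in F0_5251KD. In F0_5NC it was at 2.26, 1.75 and 1.59 FPKM and in F0_5251OV at 1.25, 1.19 and 1.9. The low value was F0_3NC replicate 1, with 31 counts, and the groups again overlapped.

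Cd163, the receptor that takes up haemoglobin bound to haptoglobin, was at 0.34, 0.3 and 0.2 FPKM in F0_3NC and at 0.39, 0.23 and 0.23 in F0_5251KD. In F0_5NC it was at 0.74, 0.17 and 0.48 FPKM, so that the control group held both the highest and the lowest library. In F0_5251OV it was at 0.35, 0.21 and 0.28 FPKM. Mrc1, the mannose receptor CD206, was the steadiest of the 10 genes, with group means of 7.36 ± 1.39 (F0_3NC), 7.08 ± 0.278 (F0_5251KD), 7.32 ± 1.01 (F0_5NC) and 7.25 ± 1.11 FPKM (F0_5251OV; SD, n = 3 each). Its highest library, F0_3NC replicate 2 with 8.95 FPKM, was 1.41 times its lowest.

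Cd68, a glycoprotein of the lysosomal membrane, was at 2.97, 3.49 and 3.32 FPKM in F0_3NC and at 5.04, 2.94 and 4.4 in F0_5251KD. It was at 6.98, 3.17 and 2.86 FPKM in F0_5NC and at 2.9, 4.03 and 1.89 in F0_5251OV. The first F0_5NC library stood apart from the other two of its group. Lyz2 was at 17.37, 24.04 and 17.9 FPKM in F0_3NC and at 27.52, 17.13 and 41.97 in F0_5251KD. It was at 45.02, 23.06 and 24.33 FPKM in F0_5NC and at 22.07, 22.34 and 16.88 in F0_5251OV. A pair of libraries, F0_5NC replicate 1 and F0_5251KD replicate 3, was thus far above the others for this gene. In CPM both of them were at 38.83.

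The C1q genes encode the 3 chains that assemble into 1 molecule. C1qa was at 6.98, 11.67 and 10.59 FPKM in F0_3NC, at 12.57, 8.1 and 12.36 in F0_5251KD, at 16.58, 11.97 and 9.73 in F0_5NC and at 7.56, 10.74 and 10.76 in F0_5251OV. C1qb was at 11.52, 13.79 and 12.15 FPKM in F0_3NC, at 14.71, 10.76 and 15.72 in F0_5251KD, at 18.59, 14.58 and 11.11 in F0_5NC and at 11.69, 14.15 and 15.32 in F0_5251OV. C1qc was at 7.61, 13.32 and 8.95 FPKM in F0_3NC, at 11.35, 7.59 and 11.16 in F0_5251KD, at 14.74, 12.35 and 9.84 in F0_5NC and at 8.91, 8.64 and 9.1 in F0_5251OV. In all 3 genes F0_5251KD replicate 2 was the lowest of its group and F0_5NC replicate 1 the highest of all libraries. The ratio of C1qa to C1qb in FPKM was between 0.606 and 0.892 (median 0.804), and that of C1qc to C1qb between 0.594 and 0.966 (median 0.749), so that the C1qb transcript was the most abundant of the 3 in every library. The lowest ratio of C1qc to C1qb was in F0_5251OV replicate 3.

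Across libraries the members mostly moved together. Over the 45 pairs of genes the median Pearson correlation of log2 CPM across the 12 libraries was 0.52, from -0.07 to 0.9, and 43 pairs were above 0. This is a description, since the 12 values of each pair share their libraries and their scaling. The closest pair was Csf1r with Lyz2 (r = 0.9). The 3 pairs of C1q chains had correlations of 0.69 to 0.86. The pairs of Mrc1 (median 0.17 over 9 pairs) and of Cd163 (0.26) were the loosest. Without F0_5NC replicate 1 the median was 0.08 for Mrc1 and -0.11 for Cd163, so the order of these 2 genes rests on that library. Without F0_5NC replicate 1 the median over all 45 pairs was 0.39 (11 libraries), and with each group centred on its own mean it was 0.56.

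F0_5NC replicate 1 had a level above the gene's own mean for 10 of 10 members. The summed level of the members was 120.6 FPKM there, 101.1 in F0_5251KD replicate 3 and between 58.0 and 85.2 in the other 10 libraries. On the log2 CPM scale the members of F0_5NC replicate 1 were on average 0.64 above the mean of the other libraries. Other gene lists were high in that library as well. The 8 Sertoli cell genes summed to 1240 CPM there and to between 606 and 874 in the other libraries, and the 12 complement genes other than C1q to 342 CPM against 162 to 241. The 7 Leydig cell genes summed to 2990 CPM in it, near the 3030 of F0_5251KD replicate 1, and the 8 germ cell genes to 10000 CPM, the lowest of the 12 libraries (up to 13000). The 7 measured epididymis genes summed to 19.1 CPM in F0_5NC replicate 1 but to 121 and 124 CPM in the other two F0_5NC libraries, to 87.7 and 65.3 in F0_5251OV replicates 1 and 2 and to 2.48 to 12.2 in the rest. The part of these differences in tissue in the members' values was not tested.

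**Figure D2:**
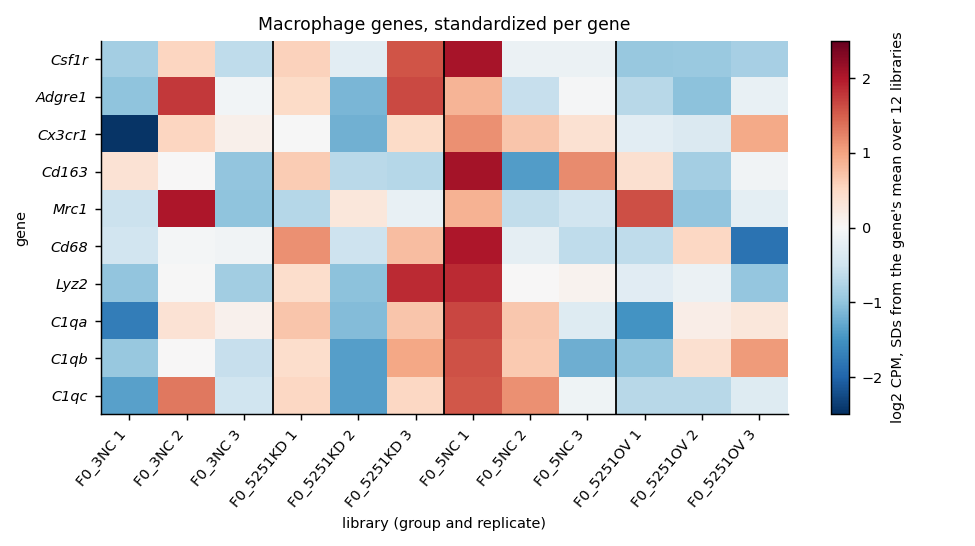
Level of each macrophage gene (rows) in each of the 12 libraries (columns), as log2 CPM in SDs from the gene's own mean over the libraries, with red above and blue below that mean. The column of F0_5NC replicate 1 is red for all 10 genes. The 3 F0_5251OV columns are mostly blue, and so are those of F0_3NC replicates 1 and 3, F0_5251KD replicate 2 and F0_5NC replicate 3.

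Overexpression of lncRNA5251 was compared with its empty vector to see whether the members changed in F0_5251OV. Here 9 of 10 members had lower fitted levels in OV and 1 (Mrc1) a higher one, where 49.5% of all genes tested were higher. The median log2 fold change of the members was -0.38, and that of all genes tested 0.0. By edgeR's quasi-likelihood test 0 of 10 members passed an adjusted p of 0.05, and neither did any other gene (0.0% of 16297 genes). DESeq2 and limma called 0 members as well. At an unadjusted p under 0.05 there was 1 member, Csf1r, against 8.77% of all genes. Csf1r had a log2 fold change of -0.48 (SE 0.191, 95% interval -0.89 to -0.07, edgeR adjusted p = 0.552). The groups did not overlap in CPM for 3 members, Csf1r, Lyz2 and C1qc, against 13.9% of all genes. For Lyz2 the value was -0.54 (SE 0.281, edgeR adjusted p = 0.588) and for C1qc -0.42 (SE 0.201, edgeR adjusted p = 0.574). Cd163 was at -0.65 and Cd68 at -0.5 with wide intervals (-1.56 to 0.26 and -1.2 to 0.19). For C1qb the value was -0.05 (-0.44 to 0.33), and for Mrc1 0.04 (-0.24 to 0.31).

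These values rest largely on F0_5NC replicate 1. Without it the median of the members was -0.18, 8 of 10 were lower, and 0 had an unadjusted p under 0.05, against 4.14% of the 16464 genes of that fit. Without F0_5NC replicate 2 or replicate 3 there were 3 and 2 such members (11.5% and 9.55% of all genes), with medians of -0.37 and -0.52. Leaving out F0_5251OV replicate 1 also gave 0 such members (5.95% of all genes), with a median of -0.3 and C1qb at 0.07. Leaving out F0_5251OV replicate 2 or replicate 3 gave 1 each (8.79% and 7.63% of all genes), with medians of -0.41 and -0.44. With F0_5NC replicate 1 left out, the log2 fold change of Csf1r was -0.23 (edgeR adjusted p = 0.987), that of Lyz2 -0.22, of Cd68 -0.04 and of Cd163 -0.19, and C1qb was at 0.09. C1qc moved least among the genes with groups that did not overlap, to -0.32.

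**Figure D3:**
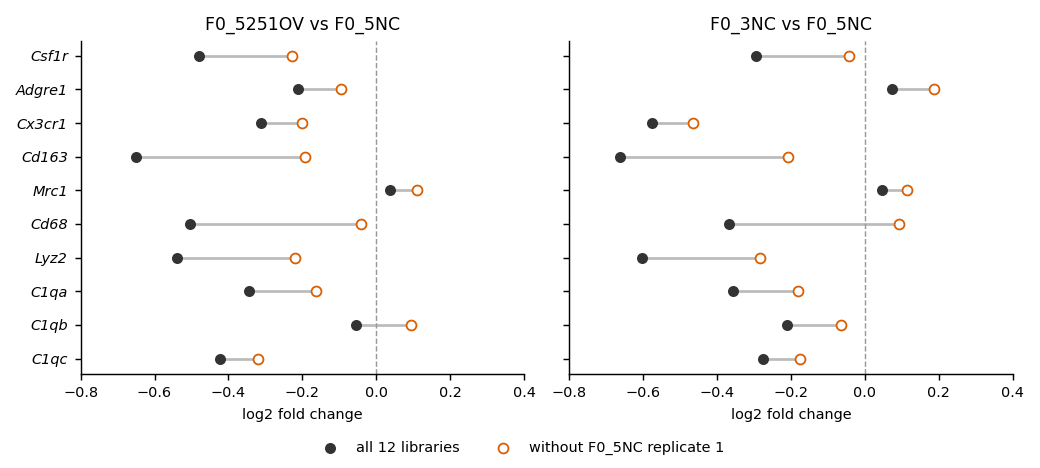
Fitted log2 fold change (x axis) of the 10 macrophage genes with all 12 libraries (filled) and without F0_5NC replicate 1 (open), for F0_5251OV vs F0_5NC and for F0_3NC vs F0_5NC, which share the F0_5NC libraries. The values of Cd68 shrink from -0.5 to -0.04 on the left and turn from -0.37 to 0.09 on the right.

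The comparison of F0_5251KD with F0_3NC asked the same of knockdown. Of the 10 members 8 had higher fitted levels in KD, where 49.1% of all genes were higher, and the median log2 fold change was 0.11 (all genes 0.0). By edgeR 0 members passed the adjusted p of 0.05 (0.0245% of all genes did), as by DESeq2 and limma. None had an unadjusted p under 0.05 (4.74% of all genes), and the groups overlapped for all 10 (11.8% of all genes did not overlap). Lyz2 had the largest value, 0.54 (SE 0.282, 95% interval -0.07 to 1.15, edgeR adjusted p = 0.897). Without F0_5251KD replicate 3 it was 0.16, and 6 of 10 members were then higher, with a median of 0.04. Other libraries moved the values as much: the median was 0.28 without F0_5251KD replicate 2 (Lyz2 at 0.8), 0.05 without F0_5251KD replicate 1, 0.29 without F0_3NC replicate 2 and 0.03 without F0_3NC replicate 1. In each of these fits 0 members were called. Cd68 was at 0.33 (-0.37 to 1.02) and Csf1r at 0.29 (-0.12 to 0.69). Adgre1 (0.03), Cx3cr1 (0.08), Cd163 (-0.02), Mrc1 (-0.07) and C1qc (0.0) were close to 0, with the narrowest interval for Mrc1 (-0.35 to 0.21), while for Cd163 it ran from -0.97 to 0.94.

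**Figure D4:**
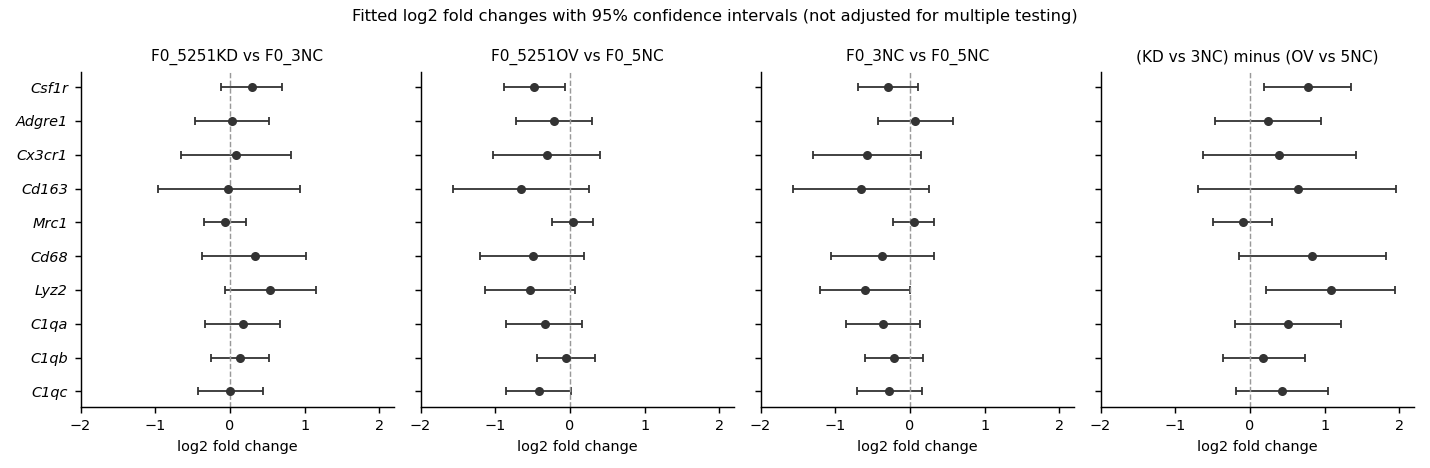
Fitted log2 fold change (x axis) of each macrophage gene with its 95% confidence interval in the 3 comparisons and for the difference between the KD and the OV effect. Only Csf1r in F0_5251OV vs F0_5NC, and Csf1r and Lyz2 in the difference, have intervals clear of 0, before any adjustment for multiple testing.

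The controls were also compared with each other, since neither virus carried lncRNA5251 or an shRNA against it. In F0_3NC 8 of 10 members were lower than in F0_5NC and 2 (Adgre1 and Mrc1) higher, where 50.1% of all genes were higher, and the median was -0.33. By edgeR, DESeq2 and limma 0 members were called (0.331% of all genes were, by edgeR) and 0 had an unadjusted p under 0.05 by edgeR (11.9% of all genes). The groups did not overlap in CPM for 1 member, Lyz2, against 17.0% of all genes, with a log2 fold change of -0.6 (SE 0.282, edgeR adjusted p = 0.424). In FPKM the Lyz2 groups overlapped. The values of Lyz2, Cd163 (-0.66), Cx3cr1 (-0.58), C1qa (-0.36), C1qb (-0.21) and Mrc1 (0.05) were at least as far from 0 as in F0_5251OV against F0_5NC. Those of Csf1r (-0.29), Cd68 (-0.37), C1qc (-0.28) and Adgre1 (0.07) were nearer to 0 than there. The median was -0.12 without F0_5NC replicate 1, -0.19 without F0_3NC replicate 1 and -0.46 without F0_3NC replicate 2, where 3 members had an unadjusted p under 0.05 (7.6% of all genes). This comparison shares its F0_5NC libraries with that of F0_5251OV, so the values of the 2 comparisons are not independent.

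Whether the effects of KD and OV differed was tested as a difference of the 2 log2 fold changes in the same fit. It was above 0 for 9 of 10 members (50.4% of all genes), with Mrc1 at -0.1 the exception, and the median was 0.47. By edgeR 0 members passed the adjusted threshold, nor did any gene (0.0%), and DESeq2 and limma called 0 members. At an unadjusted p under 0.05 there were 2 members, Csf1r and Lyz2, against 11.3% of all genes. The difference was 0.77 for Csf1r (SE 0.269, edgeR adjusted p = 0.402) and 1.08 for Lyz2 (SE 0.398, edgeR adjusted p = 0.408). Without F0_5NC replicate 1 these were 0.52 and 0.77, and 1 member, Csf1r, had an unadjusted p under 0.05, against 7.01% of all genes in that fit. The median of the members was 0.29 without F0_3NC replicate 1 and 0.67 without F0_3NC replicate 2.

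Ligands of these receptors are made by other cells of the testis and were followed as a separate list. Cx3cl1, which encodes fractalkine, the ligand of Cx3cr1, was at 7.6, 10.16 and 6.61 CPM in F0_3NC and at 3.06, 2.51 and 2.81 in F0_5NC. All 3 LV3 control libraries were above all 3 LV5 control libraries. The control groups did not overlap for 17.0% of all genes. The log2 fold change was 1.54 (SE 0.233, edgeR adjusted p = 0.00866), and Cx3cl1 was the only ligand called in any comparison. The adjusted p was 0.0531 without F0_5NC replicate 2 and 0.0556 without F0_5NC replicate 3. Cx3cl1 was at 6.93, 4.73 and 4.15 CPM in F0_5251KD (log2 fold change against F0_3NC -0.62, SE 0.221, edgeR adjusted p = 0.897) and at 2.01, 2.48 and 1.62 in F0_5251OV (-0.46 against F0_5NC, SE 0.257, edgeR adjusted p = 0.607). The fitted value of its receptor gene Cx3cr1 between the controls was -0.58, and -0.22 without F0_3NC replicate 1.

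Csf1, which encodes the main growth factor of macrophages, was at 14.56, 14.6 and 10.77 CPM in F0_3NC, at 12.52, 7.97 and 9.26 in F0_5251KD, at 11.33, 7.07 and 9.47 in F0_5NC and at 6.96, 6.46 and 5.69 in F0_5251OV. The OV libraries were the lowest and did not overlap with F0_5NC (6.96 against 7.07 CPM at the nearest), which held for 13.9% of all genes. The log2 fold change was -0.55 (SE 0.206, edgeR adjusted p = 0.552), and -0.38 without F0_5NC replicate 1. Between the controls Csf1 was higher in F0_3NC than in F0_5NC by 0.52 (edgeR adjusted p = 0.367). Against F0_3NC the value in KD was -0.42 (edgeR adjusted p = 0.897). Il34, the second ligand of the Csf1r receptor, had only 5 to 37 counts per library, with 2.22 CPM in F0_5NC replicate 1 and 0.32 to 0.96 in the others. Its log2 fold change in OV was -1.42 (edgeR adjusted p = 0.552), and -0.72 without that library. Csf2 and Csf3, growth factors of myeloid cells that bind other receptors, were on the same list and too low to be tested.

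**Figure D5:**
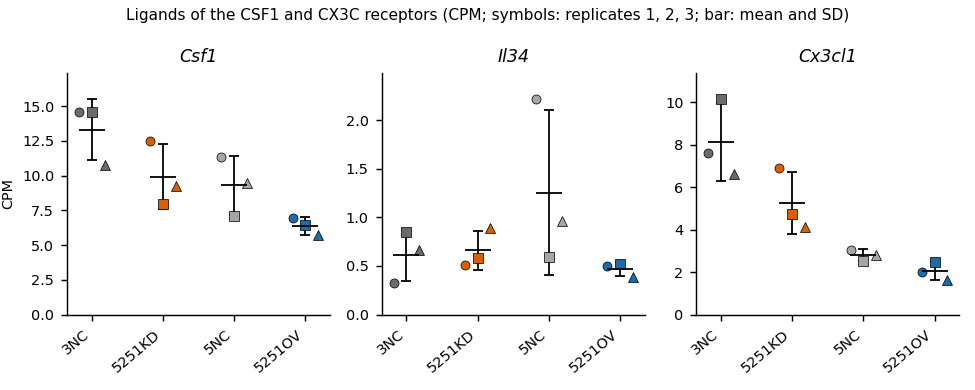
CPM (y axis, from 0) of Csf1, Il34 and Cx3cl1 in the 4 groups (x axis, prefix F0_ left off), with a symbol per library and a bar for the mean and SD of 3 libraries. The 3 F0_3NC libraries lie at 6.61 to 10.16 CPM for Cx3cl1, above the 2.51 to 3.06 of F0_5NC.

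Other genes with roles in phagocytes were counted by list. In whole testis other cells could also carry these transcripts, and which cells they came from was not tested. No gene of the following lists was called by edgeR in any of the 3 comparisons. Of 9 macrophage transcription factors, 9 were higher in KD than in F0_3NC (median log2 fold change 0.2) and 4 were higher in OV than in F0_5NC (median -0.26). Irf8, needed for the monocyte line, was at -0.87 in OV (edgeR adjusted p = 0.552). Of the 8 signalling partners of phagocyte receptors, 6 were lower in OV and 7 in KD (median -0.11 in both), with the lowest value in OV for Trem2, a lipid-sensing receptor of macrophages (-1.35, edgeR adjusted p = 0.511). Of the 7 Fc receptors and integrins tested, 7 were lower in OV (median -0.43) and 4 lower in KD (median -0.03). Of the 12 lysosomal genes, 9 were lower in OV (median -0.27) and 5 lower in KD (median 0.03). Of the 12 complement genes other than C1q, 11 were lower in OV (median -0.43), 4 of the 12 with an unadjusted p under 0.05 (8.77% of all genes), and 7 were lower in KD (median -0.01). Of the 10 genes for clearance of dying cells, 9 were lower in OV (median -0.24) and 5 in KD (median 0.02). These 10 genes summed to 484 CPM in F0_5NC replicate 1, to 360 and 368 in the other F0_5NC libraries and to 357 to 361 in OV. The lysosomal genes summed to 957 CPM in F0_5NC replicate 1, to 807 and 809 in the other F0_5NC libraries and to 810 to 844 in OV. For the Fc receptors and integrins F0_5NC replicate 3 was the highest of its group (62.2 CPM). The 9 scavenger receptors tested, with 6 lower in OV, had medians of -0.22 in OV and -0.01 in KD. Of the 6 monocyte receptors tested, 4 were lower in OV (median -0.07) and 2 lower in KD (median 0.1), and of the 4 activation products tested, 2 were lower in each (medians 0.05 and -0.04). Against the same F0_5NC libraries, F0_3NC was lower for 9 of 10 clearance genes (median -0.21) and 10 of 12 lysosomal genes (-0.21). It was lower for 8 of 12 complement genes (-0.16), 5 of 7 Fc receptors and integrins (-0.34) and 6 of 9 transcription factors (-0.29). For the signalling partners F0_3NC was lower in 3 of 8 (median 0.11), and for the monocyte receptors in 2 of 6 (0.11). The MHC class II genes, which mark antigen-presenting macrophages and dendritic cells, summed to 125 CPM in F0_3NC replicate 2 and to 38.7 to 94.3 in the other libraries. Of these 6 genes 5 were lower in OV (median -0.9) and 5 in KD (median -0.72).

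Most lists of other somatic cells had lower fitted levels in OV, as the members did. All 8 Sertoli cell genes (median -0.29), 7 of 7 Leydig cell genes (-0.22), 7 of 7 endothelial genes (-0.26) and 6 of 6 pan-leukocyte genes (-0.51) had lower fitted levels in OV than in F0_5NC, and 8 of 8 germ cell genes higher ones (0.08). Fibroblast genes were split, with 3 of 6 higher (0.03), 5 of 6 peritubular muscle genes were lower (-0.42), and the 3 dendritic cell genes tested were higher (0.33). None of them was called by edgeR. Against the same F0_5NC libraries, F0_3NC was also lower for 8 of 8 Sertoli cell genes (median -0.37) and 7 of 7 endothelial genes (-0.12). It was lower for 4 of 7 Leydig cell genes (-0.01), 4 of 6 pan-leukocyte genes (-0.18) and 3 of 6 peritubular muscle genes (-0.1). Of the germ cell genes, 5 of 8 were higher in F0_3NC (0.11). In KD, 7 of 7 endothelial genes (median 0.3), 6 of 6 fibroblast genes (0.33) and 6 of 8 Sertoli cell genes (0.13) had higher fitted levels than in F0_3NC, again with none called. The pan-leukocyte genes went the other way from most members, with 5 of 6 lower in KD (median -0.1). Between the controls the epididymis gene Spink8 (log2 fold change -3.79, edgeR adjusted p = 0.0235) and the adipocyte gene Plin1 (-1.46, edgeR adjusted p = 0.0219) were lower in F0_3NC than in F0_5NC. The part of the makeup of the tissue in the members' values was not tested.

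The genes whose pattern over the 12 libraries was most like that of the members were searched among the 15156 tested genes whose mean reached 1 CPM, by the Pearson correlation of log2 CPM with the mean standardized level of the members. They were Slc25a13, a mitochondrial carrier of aspartate and glutamate (r = 0.92), Tmsb4x, which encodes the actin-binding peptide thymosin beta 4 (0.92), Gnmt, a glycine methyltransferase (0.9), Ak3, an adenylate kinase of mitochondria (0.9), and Tmem229b (0.89). With F0_5NC replicate 1 and F0_5251KD replicate 3 left out (10 libraries) the values were 0.93, 0.88, 0.88, 0.75 and 0.75. These are the highest of many values over the same 12 libraries and are given as a description. Tmsb4x had 111 CPM in F0_5NC replicate 1 and 71.0 to 95.9 CPM in the other libraries.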

How the data were processed

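The authors captured messenger RNA of whole testes on oligo(dT) beads, primed cDNA by random hexamers, and mapped reads to reference genes by SOAPaligner. The quantification tool was not given in the sources used here, and the build is mm10 per the labels. The deposited table gives an estimated count and an FPKM value (the methods write RPKM) for 20718 genes per library. Counts were rounded, since 12.0% of them were fractional (tolerance 1e-06). A further 18 per-sample columns could not be matched to the labels and were left out.

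All 12 libraries entered 1 fit with edgeR 4.0.16 (R 4.3.3, filterByExpr, TMM factors 0.97 to 1.078, 8 residual degrees of freedom) and its two-sided quasi-likelihood test, with Benjamini-Hochberg adjustment over 16297 genes and a threshold of 0.05. CPM are scaled by TMM. The fit was tested on simulated data. Alternatives were DESeq2 1.42.0, upper-quartile scaling, other filters, limma 3.58.1 on log2(FPKM + 1) and log2(FPKM + 0.1), only the libraries compared, a replicate block, and each library left out. The named genes are the members, their ligands, Lyz1, list genes called or farthest from 0, and the 5 genes most like the members. Members and lists were chosen with earlier results of these data known.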

Additional observations from a re-analysis of the deposited data

How the results depend on the processing

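No member was called under any alternative in any comparison. With a library of the compared groups left out, 45 of 60 values of the 10 members kept their direction in F0_5251KD vs F0_3NC, 56 of 60 in F0_5251OV vs F0_5NC, 56 of 60 in F0_3NC vs F0_5NC and 118 of 120 in the difference of effects. With 3 libraries per group and 11 to 49 counts for Cd163, small changes were not detectable. The replicate numbers did not pair the libraries (correlations of deviations -0.173 to 0.065), and with the replicate block 0 members were called and the medians were 0.11, -0.39, -0.3 and 0.49.

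With limma on log2(FPKM + 1) and on log2(FPKM + 0.1), Cd163 in KD was at 0.003 and 0.005 and Mrc1 in OV at -0.014 and -0.016. With the second, Mrc1 between the controls was at -0.0. The cause was not tested.

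The log2 fold changes that turned when a library was left out, each with its lowest and highest value, were in F0_5251KD vs F0_3NC Adgre1 (-0.184 to 0.283), Cx3cr1 (-0.272 to 0.382), Cd163 (-0.323 to 0.151), Mrc1 (-0.152 to 0.086), C1qa (-0.022 to 0.338), C1qc (-0.155 to 0.253), Il34 (-0.197 to 0.428) and Lyz1 (-0.101 to 0.63). In F0_5251OV vs F0_5NC they were Mrc1 (-0.082 to 0.116), C1qb (-0.206 to 0.094) and Lyz1 (-0.769 to 0.29). In F0_3NC vs F0_5NC they were Adgre1 (-0.182 to 0.242), Mrc1 (-0.104 to 0.131), Cd68 (-0.577 to 0.091) and Lyz1 (-0.83 to 0.227). In the difference of effects they were Mrc1 (-0.188 to 0.043), Csf1 (-0.09 to 0.284) and Cx3cl1 (-0.422 to 0.023).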
